A study of Homo sapiens with 15 samples.

Results

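CRX, OTX2, NRL, NR2E3, PRDM1, THRB, RXRG, NEUROD1, RORB and RAX2 are transcription factors that direct retinal precursors towards the rod and cone fates. They were chosen by name, as regulators known for this role, but with earlier results of these data known. All 10 were found among the 19684 genes measured by poly(A) RNA-seq. The 15 libraries came from the human induced pluripotent stem cell (hiPSC) line BC1-GFP, which carries a green fluorescent protein reporter, and from its derivatives, with 3 libraries per group. The groups were undifferentiated hiPSCs, the neural retina (NR) layers dissected from retinal organoids (ROs) after 70 days (D70-ROs) or 150 days (D150-ROs) of differentiation, and Müller glial cells (iMGCs) grown out of dissociated NR layers of D150-ROs and collected at passage 1 (P1) or passage 5 (P5), on day 5 of the passage. All groups were labelled wild type and descended from 1 cell line, each RO library pooled the NR layers of several organoids, and the iMGCs were a passaged culture in serum-containing medium. Levels are given as FPKM, the fragments of a gene scaled by its transcript length and by the mapped fragments of the library, which can be compared between genes because they are scaled by length.

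In the retina, photoreceptors arise from precursors that leave the cell cycle and switch on the homeobox factor OTX2, which in turn is needed for its relative CRX, the general activator of photoreceptor genes. NRL, a leucine zipper protein of the MAF family, and its target, the orphan nuclear receptor NR2E3, drive the rod programme and hold back cone genes. The thyroid hormone receptor THRB and its partner, the retinoid X receptor RXRG, are known for their part in cone identity. RORB acts upstream of NRL, PRDM1 (BLIMP1) holds OTX2-positive precursors to the photoreceptor instead of the bipolar fate, NEUROD1 is a basic helix-loop-helix factor of photoreceptor differentiation and survival, and RAX2 is a paired-type homeobox factor of maturing photoreceptors. Müller glial cells (MGCs) come from the same retinal progenitor cells (RPCs) but are not known to keep this network.

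The genes lie apart in the genome, except that CRX and RAX2 are both on chromosome 19 and NRL and OTX2 both on chromosome 14. In GENCODE 29 (GRCh38), CRX spans chr19:47819779-47843330 on the + strand and NRL spans chr14:24080107-24115014 on the - strand. NRL has 293 exonic bases in common with DCAF11 on the opposite strand. NEUROD1, at chr2:181673088-181680876 on the - strand, has 236 exonic bases in common with CERKL on the same strand, and THRB has 42 in common with the antisense RNA THRB-AS1. THRB and RORB are the longest of the 10, with 10968 and 9591 exonic bases.

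The stretches before the transcription start show which letters known to be bound by these families are present near the members' own starts. RefSeq start windows (GRCh38.p14) matched 9 of the 10 members, with 14 windows. RAX2 had none. In the 250 bases before each start, both strands were searched for TAATCC (the CRX and OTX2 core), TAATTA (a RAX-like core), AGGTCA (a nuclear receptor core), CAGATG and CAGCTG (E-boxes of helix-loop-helix factors) and TGCTGA (an NRL and MAF core). At least 1 of these stood in 8 of the 14 windows, and the share of all windows with at least 1 of them was not counted. The CRX and OTX2 core stood in 1 member window, that of CRX itself, and in 5.62% of all 35116 windows. TAATTA was in no member window and in 4.35% of all windows. AGGTCA was in 1 member window (RXRG) and in 12.1% of all. CAGATG was in 2 (THRB and NRL) and in 12.2% of all. CAGCTG was in 2 (OTX2 and NR2E3) and in 14.0% of all. TGCTGA was in 2 (PRDM1 and RORB) and in 14.0% of all. CAGCTG and TAATTA read the same on both strands, and no printed motif overlaps another. The 5 windows below hold a motif in a stretch of at least 100 bases ahead of any annotated UTR or coding exon, and only that stretch is printed, 5′ to 3′ on the strand of the gene, with the motif in capitals. The CRX window holds GGATTA, the other-strand form of the core, at 164 and at 85 bases before the start. The second copy lies in annotated exonic sequence and is shown with its neighbouring bases only.
CRX, chr19:47821687-47821838, + strand: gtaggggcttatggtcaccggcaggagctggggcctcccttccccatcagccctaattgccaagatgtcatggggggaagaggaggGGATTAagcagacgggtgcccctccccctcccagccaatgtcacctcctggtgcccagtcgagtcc
CRX, chr19:47821840-47821869, + strand: ccaccttggccgGGATTAccctccgagttc
NR2E3, chr15:71810304-71810553, + strand: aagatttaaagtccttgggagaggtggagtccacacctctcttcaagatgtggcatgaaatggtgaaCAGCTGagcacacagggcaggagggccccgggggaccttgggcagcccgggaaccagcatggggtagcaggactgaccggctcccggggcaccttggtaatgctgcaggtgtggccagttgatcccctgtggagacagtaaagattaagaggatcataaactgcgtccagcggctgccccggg
OTX2, chr14:56805668-56805917, - strand: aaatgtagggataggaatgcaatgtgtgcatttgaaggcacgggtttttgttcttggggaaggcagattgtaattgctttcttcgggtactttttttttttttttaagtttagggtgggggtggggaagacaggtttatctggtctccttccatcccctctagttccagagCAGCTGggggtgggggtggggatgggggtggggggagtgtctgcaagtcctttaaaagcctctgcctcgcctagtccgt
RORB, chr9:74615284-74615533, + strand: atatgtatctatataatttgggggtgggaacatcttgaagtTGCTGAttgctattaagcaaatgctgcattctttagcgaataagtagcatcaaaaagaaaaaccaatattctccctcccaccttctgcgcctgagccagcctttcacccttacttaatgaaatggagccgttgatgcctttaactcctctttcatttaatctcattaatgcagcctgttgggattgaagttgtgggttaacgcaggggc
THRB, chr3:24495757-24495958, - strand: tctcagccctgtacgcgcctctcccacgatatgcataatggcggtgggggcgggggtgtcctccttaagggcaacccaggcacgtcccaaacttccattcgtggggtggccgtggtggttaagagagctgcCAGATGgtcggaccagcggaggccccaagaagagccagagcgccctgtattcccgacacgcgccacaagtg
These matches describe letters and not occupied sites, and binding was not measured.

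Library totals ran from 11349600 counts (D70-RO replicate 2) to 20398755, with a median of 17194154. The summed FPKM of 10 pluripotency genes was 3700.0 to 3840.0 in hiPSCs and at most 18.1 in every other group. Of 13 tested MGC markers, 9 were called lower in iMGCs than in D150-ROs at each passage, beside 24.1% of all genes tested at P1 and 23.9% at P5. Among them were GLUL (100.0 to 13.4 FPKM at P1), SOX9 (42.6 to 5.21), SLC1A3 (28.0 to 0.373) and SOX2 (69.9 to 0.553). Called higher were 3 at P1 and 4 at P5, among them VIM (1060.0 to 2160.0 FPKM at P1), CRYAB (10.9 to 30.2) and APOE (13.6 to 37.2). Of the calls over all genes, 45.4% were higher at P1 and 46.5% at P5. RLBP1, CA2 and AQP4 had 0 counts at P1 and AQP4 had 0 at P5. The summed FPKM of 10 mesenchymal genes reached at least 12500.0 in every P1 library and 13400.0 in every P5 library, where the middle D150-RO library had 28.9. Which libraries were prepared together is not given in the sources used here, so batch and group cannot be told apart, and the p-values measure only a spread between libraries that may be technical.

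The 10 factors together rose with organoid age and were almost gone in the cultured glia. Their summed FPKM ran from 38.7 to 48.8 in hiPSCs and from 355.0 to 381.0 in the NR layers of D70-ROs. It was highest in the D150-RO libraries, between 1300.0 and 1390.0, and did not exceed 3.33 in P1 iMGCs or 3.68 in P5 iMGCs. D150-ROs had the highest mean level of every member, and in 9 of the 10 members the D150-RO libraries lay above those of D70-ROs without overlap, as did the libraries of 77.2% of all genes tested in one direction or the other. THRB was the exception. In bulk RNA, fewer photoreceptors and less RNA per photoreceptor cannot be told apart.

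**Figure D1:**
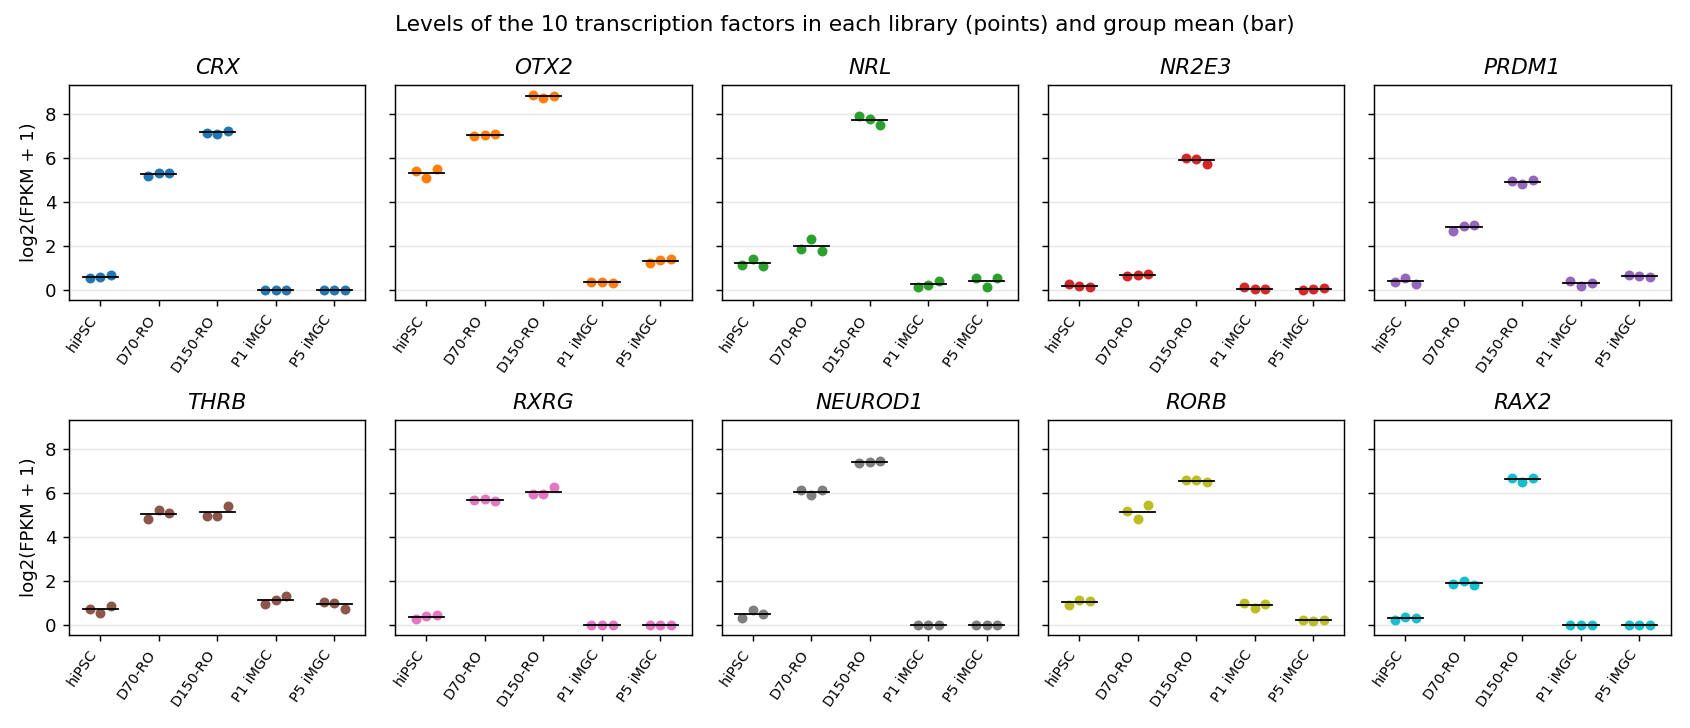
Level of each of the 10 factors, as log2(FPKM + 1) on the vertical axis, in the 3 libraries of each of the 5 groups, with points for libraries and bars for the mean of the plotted values. The members peak in D150-ROs, THRB and RXRG are already near that level in D70-ROs, NRL, NR2E3 and RAX2 are not, and CRX, RXRG, NEUROD1 and RAX2 lie at 0 in all 6 iMGC libraries.

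The first comparison asked which of the factors were present by D70, the early organoid stage. Of the 9 members that could be tested, 8 rose from hiPSCs to D70-ROs, and the one that did not pass was the rod factor NRL. A call required an adjusted p under 0.05 and a difference of at least 2-fold, from edgeR's quasi-likelihood test on the counts with Benjamini-Hochberg adjustment over all genes with FPKM of at least 1 in 3 libraries. Over the 12954 genes tested, 22.5% were called higher. CRX, PRDM1, THRB, RXRG, NEUROD1 and RAX2 reached 1 FPKM only in the D70-RO libraries. For them a rise was the only change that could be called, and the count of members describes the levels without adding support. The members' median log2 difference was 5.24 and that of all genes tested 0.02. The libraries of all 9 members tested did not overlap, as for 75.5% of all genes tested.

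The largest differences at D70 were those of RXRG and NEUROD1. RXRG was at 0.19, 0.34 and 0.36 FPKM in the hiPSC libraries and at 49.54, 52.07 and 47.72 in the D70-RO libraries, a 151-fold difference (log2 7.24 ± 0.21 SE; edgeR adjusted p = 5.26e-10). NEUROD1 went from 0.26, 0.61 and 0.43 FPKM to 69.19, 58.2 and 69.81 (log2 7.10 ± 0.23 SE; edgeR adjusted p = 8.61e-10). For both genes every D70-RO library stood far above every hiPSC library. CERKL, with which NEUROD1 has exonic bases in common, was at 0.137 ± 0.0814 FPKM in hiPSCs and 5.56 ± 1.29 in D70-ROs (SD, n = 3).

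The precursor factors started from different levels. CRX was at 0.49, 0.51 and 0.62 FPKM in hiPSCs and at 35.29, 38.75 and 38.48 in D70-ROs, a 58.7-fold rise (log2 5.88 ± 0.16 SE; edgeR adjusted p = 4.8e-10). OTX2, which pluripotent cells also express, was already at 41.49, 33.02 and 43.75 FPKM in hiPSCs and reached 127.13, 132.33 and 136.66 in D70-ROs. Its rise was 3.47-fold (log2 1.79 ± 0.12 SE; edgeR adjusted p = 2.14e-07), the smallest among the 8 members called. PRDM1, the factor that restrains the bipolar fate, stood at 0.31, 0.46 and 0.21 FPKM and then at 5.5, 6.59 and 6.76 (log2 4.43 ± 0.21 SE; edgeR adjusted p = 1.36e-08).

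The other nuclear receptors rose as well. The cone receptor THRB was at 0.65, 0.45 and 0.82 FPKM in hiPSCs and at 26.98, 36.28 and 33.09 in D70-ROs, 42.1-fold higher (log2 5.40 ± 0.22 SE; edgeR adjusted p = 4.36e-09). RORB was at 0.87, 1.18 and 1.10 FPKM and then at 35.56, 26.6 and 42.52, 37.9-fold higher (log2 5.24 ± 0.22 SE; edgeR adjusted p = 4.64e-09). The D70-RO libraries of RORB varied the most of these, with replicate 2, the library with the lowest total, the lowest.

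The rod factors and RAX2 were low at D70. NRL was at 1.19, 1.71 and 1.15 FPKM in hiPSCs and at 2.65, 4.07 and 2.43 in D70-ROs, and the groups did not overlap. The difference (log2 0.89 ± 0.30 SE; edgeR adjusted p = 0.0183) was under 2-fold, and it passed 2-fold when hiPSC replicate 2 (1.11) or D70-RO replicate 3 (1.03) was left out. DCAF11, which has exonic bases in common with NRL on the other strand, was at 66.1 FPKM in hiPSCs and 47.4 in D70-ROs. Whether the counting used strand is not given in the sources used here, and the part of DCAF11 reads in these low NRL values was not tested. NR2E3 was at 0.20, 0.16 and 0.12 FPKM in hiPSCs and at 0.58, 0.61 and 0.66 in D70-ROs, under the level needed for the test. RAX2 passed the test (log2 3.39 ± 0.29 SE; edgeR adjusted p = 1.17e-06) but from 0.16, 0.30 and 0.25 FPKM it reached only 2.64, 2.93 and 2.57.

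The second comparison asked what was added between D70 and D150, the period in which organoid photoreceptors mature. All 10 members could be tested and 8 rose, beside 16.6% of the 12855 genes tested that were called higher. NR2E3 reached 1 FPKM only in the D150-RO libraries, so that a rise was the only change that could be called for it. The members' median log2 difference was 1.70 against -0.01 for all genes. They fell into 3 sets by size: NRL, NR2E3 and RAX2 rose 32-fold or more, CRX, OTX2, PRDM1, NEUROD1 and RORB rose 2.18-fold to 3.76-fold, and the cone receptors THRB and RXRG were not called.

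**Figure D2:**
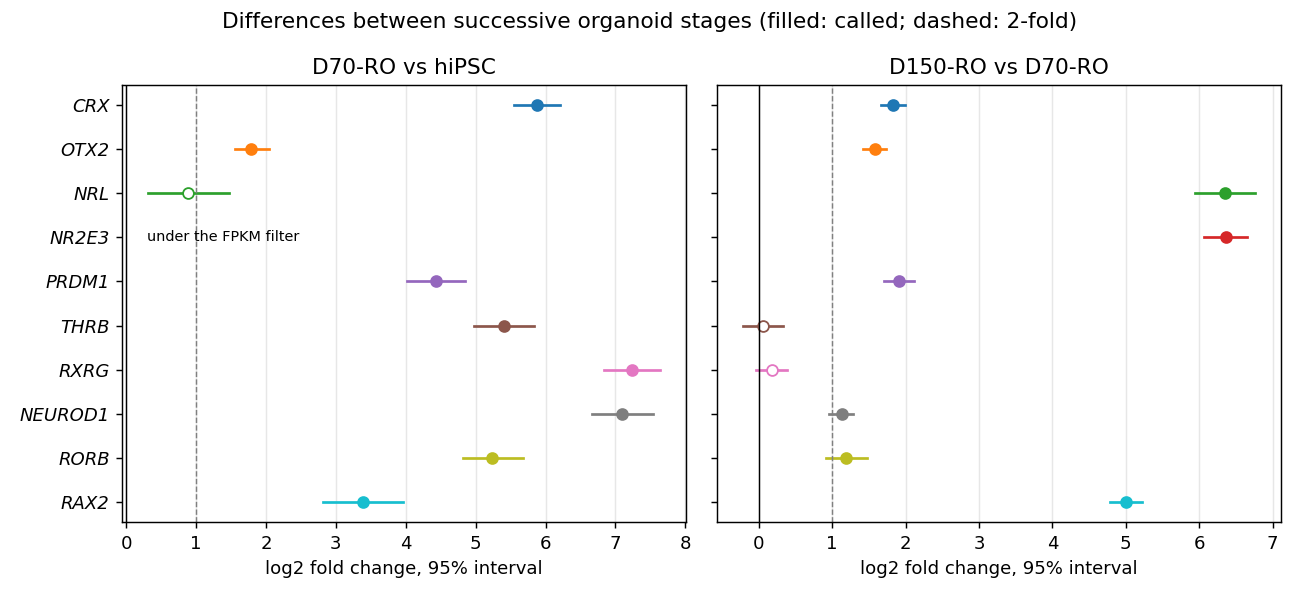
Log2 fold change of each of the 10 factors with its 95% interval, from hiPSCs to D70-ROs (left) and from D70-ROs to D150-ROs (right); filled points passed the test and the 2-fold limit (dashed line). RXRG and NEUROD1 lead on the left at 7.24 and 7.10, NRL and NR2E3 lead on the right at 6.35 and 6.36, and THRB and RXRG sit near 0 on the right.

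NRL was at 238.47, 214.93 and 180.21 FPKM in the D150-RO libraries, against at most 4.07 in D70-ROs (log2 6.35 ± 0.21 SE; edgeR adjusted p = 9.28e-08). Its target NR2E3 was at 62.98, 61.68 and 52.33 FPKM in D150-ROs, against at most 0.66 (log2 6.36 ± 0.15 SE; edgeR adjusted p = 3.85e-08). RAX2 was at 100.48, 90.03 and 100.69 FPKM, against at most 2.93 (log2 5.00 ± 0.11 SE; edgeR adjusted p = 3.75e-08). In each of the 3 genes the lowest D150-RO library stood far above the highest D70-RO library. DCAF11 was at a mean of 47.4 FPKM at the earlier stage and 46.5 at the later.

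The cone receptors differed little between the stages. THRB was at 30.22, 30.17 and 41.55 FPKM in D150-ROs, and these libraries overlapped with the D70-RO values of 26.98 to 36.28. The log2 difference was 0.06 ± 0.14 SE (edgeR adjusted p = 0.715) with a 95% interval of -0.22 to 0.33, so the data bound a change in either direction well under 2-fold without showing equality. Its sign depended on the processing: it was -0.04 under upper-quartile scaling, -0.32 with a trend on transcript length removed, -0.02 without D70-RO replicate 1 and -0.11 without D150-RO replicate 3. RXRG was at 61.29, 60.09 and 75.9 FPKM, above all D70-RO libraries. On the count scale its log2 difference was 0.18 ± 0.11 SE (edgeR adjusted p = 0.167) with an interval of -0.04 to 0.39.

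The remaining 5 members rose by similar, moderate amounts. CRX reached 140.11, 135.98 and 149.7 FPKM (log2 1.83 ± 0.08 SE; edgeR adjusted p = 4.05e-07). OTX2 reached 467.55, 419.42 and 454.46 FPKM, the highest level of any member in any group (log2 1.58 ± 0.08 SE; edgeR adjusted p = 7.51e-07). PRDM1 reached 30.29, 27.23 and 30.91 FPKM (log2 1.91 ± 0.10 SE; edgeR adjusted p = 9.4e-07). For these genes no D150-RO library overlapped with D70-ROs. NEUROD1 reached 163.99, 165.73 and 172.54 FPKM (log2 1.13 ± 0.08 SE; edgeR adjusted p = 4.62e-06) and RORB 96.01, 94.21 and 88.24 (log2 1.19 ± 0.14 SE; edgeR adjusted p = 7.73e-05). Both exceeded 2-fold narrowly, and neither passed a test against a 2-fold change itself (edgeR adjusted p = 0.0989 and 0.137). RORB, the second longest of the 10, also fell to a log2 difference of 0.23 with the length trend removed.

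The make-up of the set shifted accordingly. OTX2 held 85.2% to 90.6% of the summed FPKM of the 10 genes in hiPSCs, 35.8% to 36.9% at D70 and 32.3% to 33.8% at D150. CRX kept nearly the same share in the organoids, with 9.94% to 10.8% at D70 and 10.1% to 11.1% at D150. NRL went from 0.638% to 1.14% at D70 to 13.4% to 17.1% at D150, second only to OTX2, and RAX2 from 0.675% to 0.817% to 6.93% to 7.48%. The shares of RXRG (12.5% to 14.5%, then 4.4% to 5.64%) and THRB (7.6% to 10.1%, then 2.17% to 3.09%) were lower at D150, where the sum was higher and their own levels differed little. NEUROD1, the second gene at D70 with 16.2% to 19.5%, was at 11.8% to 12.8% at D150. These shares are a description and were not tested.

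**Figure D3:**
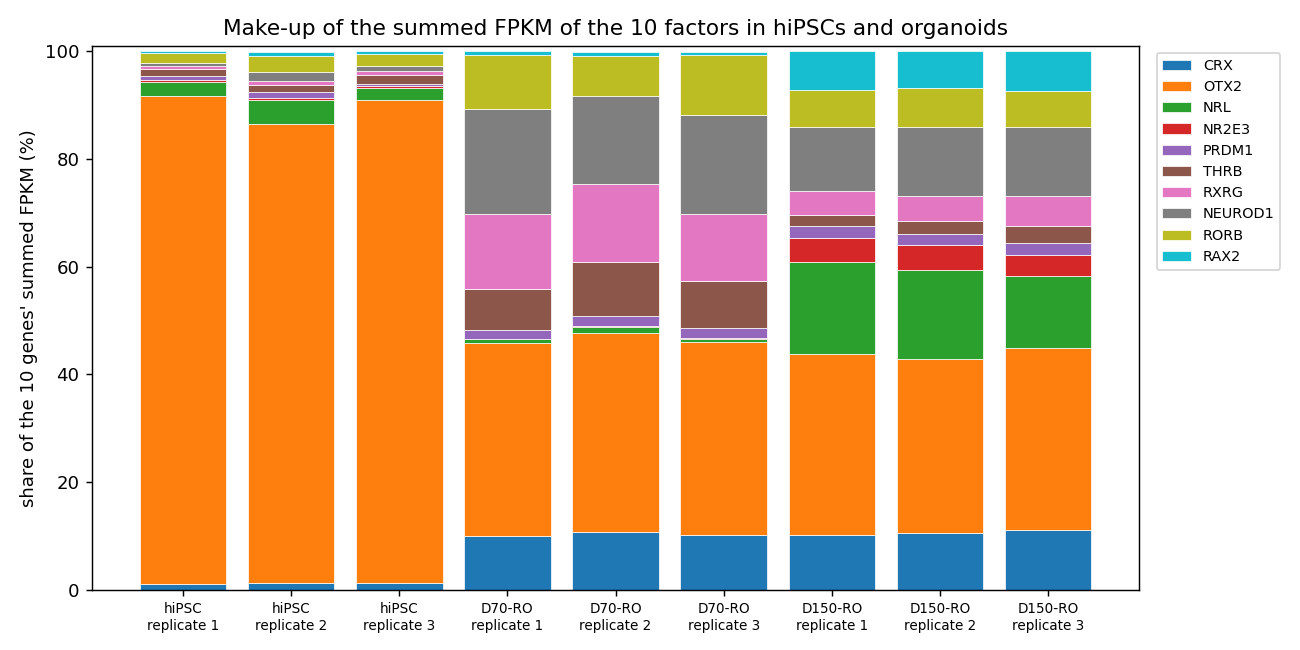
Share of each factor in the summed FPKM of the 10 genes (vertical axis, %), as 1 stacked bar per library of hiPSCs, D70-ROs and D150-ROs. OTX2 fills 85.2% to 90.6% of the hiPSC bars, RXRG and THRB are widest in D70-ROs, and the bands of NRL, NR2E3 and RAX2 are widest in D150-ROs.

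The genes that the factors act on were read from lists of rod genes, cone genes and genes of both photoreceptor types. From hiPSCs to D70-ROs, 7 of 7 tested cone genes of 14 listed rose (median log2 5.6), as did 14 of 15 tested shared genes of 20 listed (median 3.82), while of 8 tested rod genes of 15 listed 4 rose and 1 fell (median 0.73), where 21.1% of all genes were called lower. The cone phosphodiesterase subunit PDE6H led the cone genes at D70 with 72.2 FPKM against 0.723 in hiPSCs (log2 6.49 ± 0.21 SE; edgeR adjusted p = 9.01e-10). The phosphodiesterase subunit PDE6G was the rod gene that fell, from 6.27 to 1.32 FPKM (log2 -1.90 ± 0.36 SE; edgeR adjusted p = 0.000524). From D70-ROs to D150-ROs, 11 of 13 tested rod genes rose (median 4.55), 10 of 10 cone genes rose (median 2.67), and 18 of 19 shared genes rose while CRB1, an apical polarity protein, fell (median 3.39). The members' own median over that interval was 1.70, and their range of 0.06 to 6.36 lay within that of the rod genes, -0.16 to 8.47. A gene had to reach 1 FPKM in 3 libraries to be tested. For genes silent in hiPSCs or at D70, a rise from that group was the only change that could be seen.

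**Figure D4:**
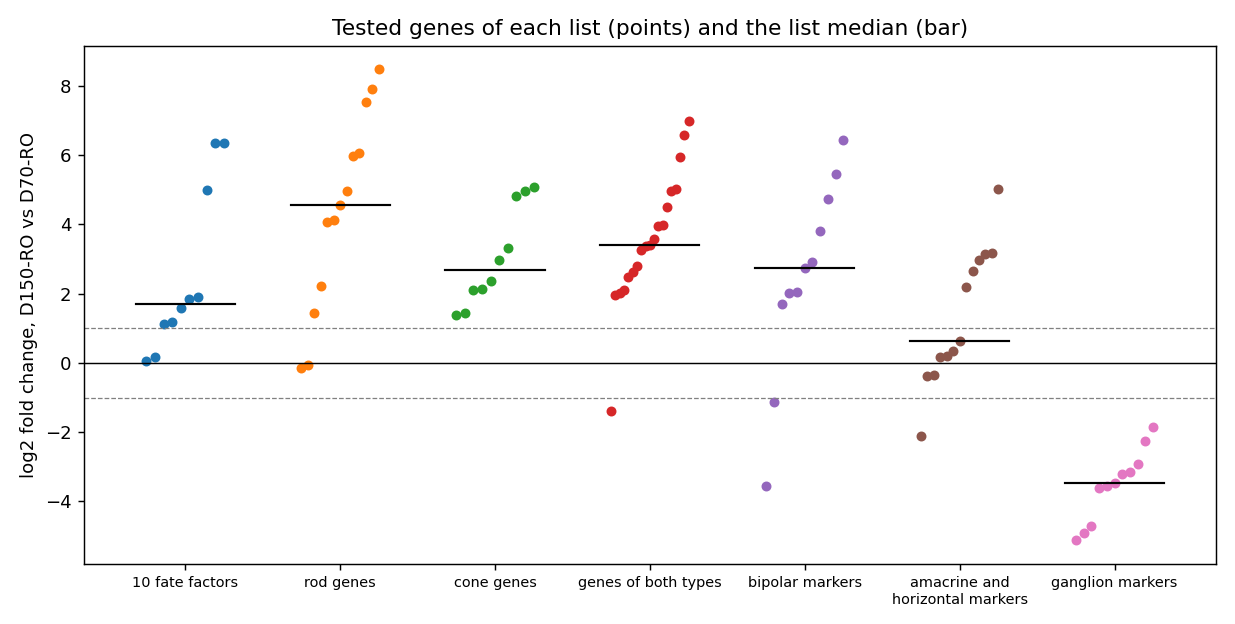
Log2 fold change from D70-ROs to D150-ROs (vertical axis) for the tested genes of 7 lists, with a point per gene and a bar at the list's median; dashed lines mark 2-fold. The fate factors have a median of 1.70, rod genes 4.55, cone genes 2.67, genes of both types 3.39, bipolar markers 2.75, amacrine and horizontal markers 0.62 and ganglion markers -3.48.

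Among the rod genes, GNAT1, the rod transducin subunit, was at 105.09, 84.09 and 68.16 FPKM in D150-ROs. In the 3 libraries the order of GNAT1 was the order of NRL. Of the rod genes called, SAG (rod arrestin) and PDE6A had the largest fitted rises and were at 8.49 ± 1.93 and 8.56 FPKM on average in D150-ROs, against 0.0367 and 0.04 in D70-ROs.

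Other regulators of retinal fate moved in both directions between D70 and D150: of 24 tested, 9 rose and 9 fell, with a median log2 difference of -0.04. The largest rises were those of SAMD7, a repressor of nonrod genes in rods, from 0.423 to 70.2 FPKM (log2 7.26 ± 0.22 SE; edgeR adjusted p = 6.96e-08), and SALL3, from 0.147 to 3.3 FPKM (log2 4.59 ± 0.32 SE; edgeR adjusted p = 3.32e-06). The largest falls were those of ATOH7, the ganglion cell competence factor, from 69.5 to 3.12 FPKM (log2 -4.70 ± 0.17 SE; edgeR adjusted p = 1.35e-07), and FOXN4, a progenitor factor, from 16.9 to 3.39 FPKM (log2 -2.54 ± 0.13 SE; edgeR adjusted p = 7.82e-07). SALL3 had fallen from 11.5 to 0.147 FPKM between hiPSCs and D70-ROs.

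The close relatives of the members moved in both directions. Of 11 relatives tested between D70 and D150, 2 rose and 3 fell (median -0.23), beside 16.6% of all genes called higher and 16.7% called lower. NEUROD4, a relative of NEUROD1 counted in both lists, rose from 32.8 to 153.0 FPKM (log2 2.00 ± 0.09 SE), and RORA, a relative of RORB, rose from 4.41 to 27.0 FPKM (log2 2.27 ± 0.18 SE), with edgeR adjusted p of 3.22e-07 and 7.57e-06. NR2F2, an orphan receptor, fell from 21.2 to 8.89 FPKM (log2 -1.49 ± 0.11 SE; edgeR adjusted p = 4.52e-06).

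Markers of other retinal neurons moved over the same interval. Of 11 tested bipolar markers 9 rose and 2 fell (median log2 2.75), and the 14 listed genes summed to at most 238.0 FPKM in a D70-RO library and at least 392.0 in a D150-RO library. Since OTX2, CRX, NEUROD1 and RORB are also expressed in bipolar or other inner retinal cells, these values stand beside theirs, and the part of such cells in their rise was not tested. Of 13 tested amacrine and horizontal markers 6 rose and 1 fell. All 11 tested ganglion markers fell, with a summed FPKM of 260.0 to 326.0 at D70 and 40.1 to 50.9 at D150. Pigment epithelium, which expresses OTX2, gave a summed FPKM over 12 markers between 154.0 and 226.0 in D70-RO libraries and between 178.0 and 185.0 in D150-RO libraries. These sums hold opposite movements. Of 7 tested, RLBP1 (1.16 to 33.5 FPKM), which MGCs also express, and TTR (0.8, 8.46 and 3.57, then 20.23, 25.89 and 19.13 FPKM) rose, while the pigment protein gene PMEL fell (102.0 to 1.29 FPKM). SERPINF1 (60.1 and 108.0 FPKM), DCT (15.3 and 12.8), BEST1 (1.51 and 2.87) and MITF (1.07 and 1.51) were not called, and TYR and RPE65 were at most 0.6 FPKM in any RO library. The part of pigment epithelium in the OTX2 values was not tested.

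Over the whole course from hiPSCs to D150-ROs, all 10 members rose, beside 29.8% of the 13344 genes tested that were called higher. CRX, NR2E3, PRDM1, THRB, RXRG, NEUROD1 and RAX2 reached 1 FPKM only in the D150-RO libraries. For them a rise was the only change that could be called. The log2 differences ran from 3.37 (OTX2) to 8.39 (RAX2), with a median of 7.32 against -0.02 for all genes. This comparison has its libraries in common with the 2 before it and adds no independent evidence.

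The third comparison set the iMGCs beside the organoids they were grown from. All 10 members fell at P1, beside 24.1% of the 12896 genes tested that were called lower, and all 10 fell at P5, beside 23.9% of 12933. Nearly all members reached 1 FPKM only in the D150-RO libraries, so that a fall was the only change that could be called for them, and the counts describe the levels without adding support. CRX, RXRG, NEUROD1 and RAX2 had 0 counts in every one of the 6 iMGC libraries. With the lowest level taken as 3 counts over the group and scaled by library totals, CRX was at least 10100-fold lower in iMGCs than in D150-ROs at either passage. NEUROD1 was at least 7980-fold lower at P1 and 7970-fold at P5, RAX2 at least 3670-fold and 3660-fold, and RXRG at least 2250-fold at both. The median log2 difference over the 10 members was -10.06 at P1 and -9.64 at P5, also with these 4 genes set to their bounds, against -0.05 for all genes at each passage. CERKL was at 1.72 FPKM in P1 and 2.14 in P5 iMGCs, where NEUROD1 had no count. The 2 comparisons have the D150-RO libraries in common.

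NR2E3 was near the detection limit in iMGCs, with 3, 1 and 1 counts in the P1 libraries and 0, 1 and 2 in the P5 libraries. The exact Clopper-Pearson 95% interval of its log2 ratio to D150-ROs, which covers counting error only, was -11.84 to -9.00 at P1 and -13.23 to -9.41 at P5. NRL was at 0.12, 0.17 and 0.35 FPKM at P1 and at 0.46, 0.11 and 0.48 at P5, and its log2 difference from D150-ROs was -9.81 ± 0.19 SE at P1 and -9.15 ± 0.18 SE at P5 (edgeR adjusted p = 2.36e-16 and 7.52e-17). These NRL levels are 13 counts in the 3 P1 libraries and 20 in the 3 P5 libraries. P1 iMGC replicate 3 held 8 of the 13, and without it the log2 difference at P1 was -10.55. DCAF11 was at 15.9 FPKM in P1 and 15.5 in P5 iMGCs, and the part of its reads in these NRL counts was not tested.

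THRB, RORB, PRDM1 and OTX2 kept measurable counts. THRB differed least from D150-ROs of all members, with log2 differences of -4.08 ± 0.15 SE at P1 and -4.52 ± 0.15 SE at P5 (edgeR adjusted p = 3.79e-13 and 4.78e-14). The log2 differences of PRDM1 were -6.59 ± 0.13 SE and -4.93 ± 0.10 SE (edgeR adjusted p = 2.21e-16 and 1.27e-16). Those of RORB were -6.05 ± 0.08 SE and -8.58 ± 0.09 SE (edgeR adjusted p = 2.93e-18 and 1.47e-19). For OTX2 they were -10.31 ± 0.10 SE and -7.40 ± 0.08 SE (edgeR adjusted p = 1.77e-19 and 1.64e-19). No iMGC library overlapped with the D150-ROs in any of the 10 members, as for 87.9% of all genes tested at P1 and 88.5% at P5.

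Relatives of the cone receptors were found at higher levels than the members themselves. THRA, the other thyroid hormone receptor gene, also fell from D150-ROs to P1 iMGCs (log2 -1.10 ± 0.09 SE; edgeR adjusted p = 1.33e-08) but was still at 9.26, 10.1 and 10.37 FPKM, against 0.91, 1.22 and 1.49 for THRB. RXRA, the widely expressed partner receptor, was at 7.8, 6.55 and 8.02 FPKM where RXRG had no count, and its log2 difference from D150-ROs was 0.04 ± 0.11 SE (edgeR adjusted p = 0.726). NR2F2 was the 1 relative of 10 tested that rose at P1, from 8.89 to 151.0 FPKM (log2 4.52), while 6 fell, beside 24.1% of all genes called lower. Of the other fate regulators, 21 of 23 tested fell at P1 and none rose, and NEUROD4 and RAX had 0 counts in all 6 iMGC libraries. The rod, cone and shared photoreceptor lists gave 11 of 13, 10 of 10 and 19 of 19 tested genes lower at P1. Most of these genes reached 1 FPKM only in D150-ROs, so that a fall was the only change that could be called.

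The fourth comparison asked whether the remaining factors differed between the passages. OTX2 rose from P1 to P5 iMGCs. Only OTX2 and THRB reached the level needed for the test, and 1 of the 2 was called higher, beside 1.94% of the 11366 genes tested. Because OTX2 reached 1 FPKM only in the P5 libraries, a rise was the only change that could be called for it. OTX2 was at 0.31, 0.29 and 0.25 FPKM (7, 5 and 9 counts) in P1 iMGCs and at 1.34, 1.56 and 1.64 FPKM (48, 52 and 54 counts) in P5 iMGCs. The groups did not overlap, and the difference was 7.57-fold (log2 2.92 ± 0.31 SE; edgeR adjusted p = 4.67e-08). The mean P5 level of 1.51 ± 0.155 FPKM (SD, n = 3) compares with 447.0 in D150-ROs and 39.4 in hiPSCs. On the log2(FPKM + 1) scale, which understates changes at low levels, limma gave a log2 difference of 0.97 (adjusted p = 0.000178), under 2-fold and so not called. THRB was at 0.91, 1.22 and 1.49 FPKM at P1 and at 1.09, 1.02 and 0.67 at P5, which overlap (log2 -0.44 ± 0.16 SE; edgeR adjusted p = 0.0425, under 2-fold).

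Without a limit on low values, RORB and PRDM1 were called in opposite directions, beside 2.53% of 16194 genes called higher and 1.76% called lower. RORB fell from 0.99, 0.73 and 0.95 FPKM (152, 115 and 160 counts) at P1 to 0.17, 0.14 and 0.16 (28, 20 and 23 counts) at P5 (log2 -2.52 ± 0.19 SE; edgeR adjusted p = 2.94e-26). PRDM1 rose from 0.32, 0.16 and 0.26 FPKM (14, 8 and 23 counts) to 0.62, 0.57 and 0.50 (56, 51 and 30 counts), with a log2 difference of 1.66 ± 0.30 SE (edgeR adjusted p = 1.81e-06). Neither gene reached 1 FPKM in any iMGC library. With OTX2 these were the 3 of the 6 members with any count whose P1 and P5 libraries did not overlap, as for 32.6% of the 16194 genes with a count. NRL (log2 0.68 ± 0.70 SE; edgeR adjusted p = 0.551) and NR2E3 (counting interval of the log2 ratio -3.42 to 1.63) were too low for a difference to be detectable at this depth.

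**Figure D5:**
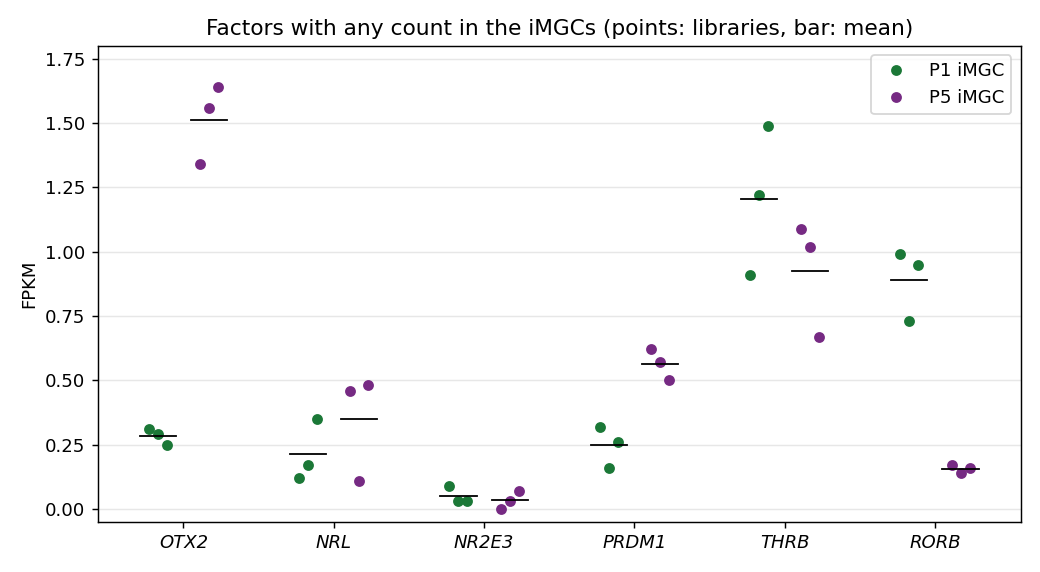
FPKM of the 6 factors with any count in iMGCs (vertical axis), for the 3 P1 and 3 P5 libraries, with bars at the group means. OTX2 and PRDM1 are higher at P5 and RORB is higher at P1 without overlap, while NRL, NR2E3 and THRB overlap.

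Markers of the cell types that also express OTX2 were read beside it. The pigment epithelium markers summed to between 7.43 and 8.73 FPKM in the P1 libraries and between 8.66 and 9.72 in the P5 libraries. Of the 2 that could be tested, SERPINF1 was at 2.71, 2.23 and 2.02 FPKM at P1 and at 3.36, 4.13 and 3.71 at P5, without overlap (log2 0.77 ± 0.17 SE; edgeR adjusted p = 0.00114, under 2-fold). MITF was at 4.5, 3.98 and 4.02 FPKM at P1 and at 4.35, 2.99 and 3.3 at P5 (log2 -0.42 ± 0.10 SE; edgeR adjusted p = 0.002, under 2-fold). BEST1, too low for the test, was at 0.46, 0.66 and 0.71 FPKM and then at 0.93, 0.92 and 0.79, also without overlap. TTR had 0 counts in all 6 libraries, and TYR, RPE65 and DCT were at most 0.04 FPKM. MLANA, also too low for the test, was at 0.34, 0.18 and 0.24 FPKM and then at 0.16, 0.1 and 0.16, lower without overlap. TYRP1, PMEL and LRAT overlapped between the passages. So SERPINF1 and BEST1 were higher at P5 in every library, as OTX2 was, MITF was not, and MLANA was lower. Of the 16194 genes with a count, 32.6% did not overlap between P1 and P5.

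Of the 14 bipolar markers, 9 were at 0 counts in all 6 iMGC libraries, VSX1 among them. PRKCA, which many other cells express, made up most of their summed FPKM, with 16.92, 16.33 and 16.95 FPKM at P1 and 13.15, 13.2 and 13.12 at P5. PRDM8, also a bipolar marker, was at 0.19, 0.19 and 0.25 FPKM at P1 and at 1.08, 0.94 and 0.92 at P5, higher at P5 without overlap, as OTX2 was. The part of pigment epithelium or bipolar cells in the OTX2 difference was not tested. Of the other fate regulators, LHX2, an eye field factor, fell from 3.1 to 1.97 FPKM (log2 -1.11 ± 0.17 SE; edgeR adjusted p = 1.08e-05). Among those too low for the test, SIX6 was at 0.0, 0.02 and 0.02 FPKM at P1 and at 0.95, 0.81 and 0.83 at P5. SIX6 and ISL2 were higher at P5 without overlap, and CASZ1 was lower without overlap.

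Set beside hiPSCs, P1 iMGCs were lower in both members that reached the tested level, where 29.7% of 12666 genes were called lower. Both reached 1 FPKM only in the hiPSC libraries, so that a fall was the only change that could be called. The count describes the levels without adding support. OTX2 fell by 6.94 on the log2 scale (SE 0.20; edgeR adjusted p = 4.59e-11). NRL fell by 2.60 (SE 0.43; edgeR adjusted p = 0.00014). Without P1 iMGC replicate 3 the NRL difference was -3.34, and with limma on log2(FPKM + 1) it was -0.95, under 2-fold and so not called. DCAF11, which has exonic bases in common with NRL, was at 66.1 FPKM in hiPSCs and 15.9 in P1 iMGCs. The part of its reads in the NRL difference was not tested. CRX, NEUROD1, RXRG and RAX2, at 0.237 to 0.54 FPKM on average in hiPSCs and at 0 counts in iMGCs, were at least 37.7-fold, 20.5-fold, 10.1-fold and 8.43-fold lower in P1 iMGCs. THRB was the 1 member with a mean FPKM above that of hiPSCs, with 0.91 to 1.49 against 0.45 to 0.82 FPKM, and it was called only without a limit on low values (log2 1.38 ± 0.23 SE; edgeR adjusted p = 5.78e-05), where 23.2% of all genes were called higher.

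The genes whose levels ran most closely with each member over the 15 libraries were found by Pearson's r of log2(FPKM + 1) among 13915 genes. The 15 points fall into 5 groups of widely different levels and share their libraries, so r is given as a description. NRL ran with PRPH2, a protein of the outer segment disc rim (r = 0.9975), the lipid transporter ABCA7 (r = 0.9968) and the rod channel subunit CNGB1 (r = 0.9961). NR2E3 ran with IMPG1, a protein of the matrix around photoreceptors (r = 0.9993), the glutamate receptor GRIK1 and GNAT1. The neighbours of RAX2 were KCNG4, CACNA2D4, a calcium channel subunit of photoreceptor synapses, and ABCA4, the outer segment transporter. All of these were below 7 FPKM at D70 and between 15.5 and 139.0 at D150.

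The neighbours of the other members differed less between D70 and D150. RXRG ran with CPLX3, a complexin of ribbon synapses (r = 0.9988; 32.8 FPKM at D70 and 46.1 at D150), CELF3 and NSG2. THRB ran with MAP6 (r = 0.9971; 57.0 and 61.0 FPKM), VXN and NTRK2. NEUROD1 ran with AMER2 (r = 0.9998), DACH1 and PCBP4, and RORB with TIGD1, AMER2 and MAP2. CRX ran with TMEM176B (r = 0.999), NEUROD4 and the cone transducin subunit GNB3. PRDM1 ran with GDPD5 (r = 0.9984), RGR and CPLX4, and OTX2 with SERPINF1 (r = 0.9978), MCF2L and RNF157.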

How the data were processed

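Poly(A) RNA-seq libraries of 5 groups, 3 each, were analysed. The submitters' notes name HISAT2, StringTie, RSEM and DESeq2 for the paired-end reads; versions, genome build, annotation and strand setting are not given in the sources used here. The deposited expected counts are not normalized. The deposited FPKM were scaled by the authors for transcript length and mapped fragments. Between 8.21% and 10.05% of the expected counts per library were not whole and were rounded. All 19684 identifiers matched GENCODE 29, which gave symbols, positions and overlaps. A further table, in which 12 value columns of iMGCs name no passage, was not used, nor were the authors' own fold changes and p-values.

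Each comparison was fitted in edgeR 4.0.16 (R 4.3.3) with TMM factors and the quasi-likelihood test (glmQLFit, glmQLFTest) on the 6 libraries concerned, keeping genes that reached 1 FPKM in 3 or more of them. Benjamini-Hochberg adjustment ran over all genes tested, and a call needed adjusted p under 0.05 and at least 2-fold. A gene with 0 counts in a group was bounded at 3 counts over the group against raw library totals, and ratios on few counts have exact Clopper-Pearson 95% intervals; both cover counting error only. Levels are FPKM per library, with the mean and SD of 3. Alternatives were DESeq2 1.42.0, other scaling and filters, limma 3.58.1 on log2(FPKM + 1) and log2(FPKM + 0.1), a test against 2-fold, 1 fit of all 15 libraries, removal of a trend on transcript length, a replicate block, and each library left out. The scripts were tested on simulated data.

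The members and all lists were chosen with earlier results of these data known. Named were all members, the genes overlapping them, up to 4 genes per list (the 2 largest rises and 2 largest falls among those called) and the 3 genes of highest r per member. A few further genes (THRA, RXRA, marker genes) were named after their values were seen, and some genes that the rule names are not reported here. Promoter windows came from RefSeq (GRCh38.p14). Sources differ on the number of independent experiments behind the hiPSC and RO libraries and name a batch correction for joint analyses without saying which values it touched.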

Additional observations from a re-analysis of the deposited data

How the results depend on the processing

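Over all alternatives, the count of members called stayed within 1.5 times the value reported in 113 fits and moved beyond it in 6, and single members kept direction and side of the limits in 887 fits, while 4 reversed, 5 became called and 5 lost their call. The number of members called ran from 8 to 9 between hiPSCs and D70-ROs and from 6 to 8 between D70-ROs and D150-ROs, and was 10 in every fit of iMGCs or hiPSCs against D150-ROs. The counts that moved rest on the limit for low values and the log scale. Between P5 and P1 iMGCs, 3 members were called with every gene tested, 3 under filterByExpr and 0 with limma on log2(FPKM + 1), where OTX2 was at 0.97. Between P1 iMGCs and hiPSCs, 7 were called with every gene tested, 5 under filterByExpr and 1 with limma on log2(FPKM + 1), where NRL was at -0.95. For THRB between D70 and D150 the sign turned to -0.04 (upper-quartile scaling), -0.32 (length trend removed), -0.02 (without D70-RO replicate 1) and -0.11 (without D150-RO replicate 3), in a range of -0.11 to 0.17 with each library left out. NRL between hiPSCs and D70-ROs became called at 1.03 with library totals only, 1.10 with limma on log2(FPKM + 0.1) and 1.03 with the length trend removed. The causes were not tested.

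Scaling moved the whole distribution. With library totals in place of TMM factors the median log2 difference of all genes shifted by 0.14 from hiPSCs to D70-ROs, 0.22 from D70-ROs to D150-ROs, 0.36 from hiPSCs to D150-ROs, -0.64 and -0.70 from D150-ROs to P1 and P5 iMGCs, and -0.28 from hiPSCs to P1 iMGCs. The share of calls that were higher went from 49.8% to 63.9% between D70-ROs and D150-ROs, from 50.7% to 61.5% between hiPSCs and D150-ROs, from 45.4% to 22.6% for P1 iMGCs and from 46.5% to 22.0% for P5 iMGCs. The fold bounds of the genes at 0 counts use library totals. They hold on that scale only and would be smaller with TMM factors.

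Replicate numbers did not pair the samples: same-numbered libraries correlated in their deviations from the group means at -0.0795 to 0.35. With a replicate block, the members called were 8, 8, 10, 10, 10, 1 and 2 in the order of the comparisons D70-RO against hiPSC, D150-RO against D70-RO, D150-RO against hiPSC, P1 and P5 iMGC against D150-RO, P5 against P1 iMGC and P1 iMGC against hiPSC, and the block changed no call of a member. Depth limits what can be said of NR2E3 and NRL in iMGCs.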

Other observations

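The 3 D150-RO libraries differed among themselves in the balance of rod and cone genes, a pattern noticed after the values were seen and not tested. Replicate 3 had the lowest NRL (180.21 FPKM) and NR2E3 (52.33 FPKM) and the highest THRB (41.55 FPKM) and RXRG (75.9 FPKM) of the 3. On the log2(FPKM + 1) scale its difference from the mean of replicates 1 and 2 was -0.33 for NRL, -0.25 for NR2E3, 0.45 for THRB and 0.32 for RXRG, and between -0.11 and 0.12 for the other 6 factors. Replicate 3 was the highest of the 3 in 11 of 12 cone genes with a mean of at least 1 FPKM (median difference 0.50) and the lowest in 10 of 13 rod genes (median -0.22). Among all 12640 genes at that level it was the highest in 4181 and the lowest in 3773 (median 0.0). Replicate 3 was also the lowest in 8 of 11 bipolar markers (median -0.22) and in 8 of 12 amacrine and horizontal markers (median -0.27), and among the genes of both photoreceptor types it was the highest in 9 and the lowest in 2 of 19 (median 0.03). The cone photopigment OPN1MW, at -0.15, and the rod genes SLC24A1, at 0.50, and NXNL1, at 0.25, went against the balance of their lists.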
